A study of Mus musculus with 11 samples.

Results

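The genes described here are 46 genes of DNA replication and S phase, taken from a written list of replication fork, origin, nucleotide supply and S phase genes and looked up by symbol among the 25562 genes of the deposited expression table. All 46 were in the table, and all 46 reached a mean of 1 TPM (a share of all transcripts of a library, corrected for transcript length), so that every one of them was tested. Transcripts were measured by sequencing polyadenylated RNA of 11 libraries of CD8+ T cells, the killer lymphocytes, isolated with a kit from the spleens of inbred C57BL/6 mice. In all 11 libraries the cells spent 22 h in a pretreatment and were then activated for 24 h. Activation went through the T cell receptor with anti-CD3 (1 µg/mL) and through the costimulatory receptor CD28 with anti-CD28 (0.5 µg/mL). No library here was of unactivated cells. In the AOAH group (4 libraries) the cells received 10 µg/mL of recombinant, His-tagged human acyloxyacyl hydrolase, a lipase that removes acyl chains from lipopolysaccharide and phospholipids, and an ethanol control. In the PC group (3 libraries) they were pretreated with 60 µM PC16:0-20:4, a phosphatidylcholine whose chains are palmitate and arachidonate, and activated with 10% glycerol PBS, the protein buffer. The vehicle group (4 libraries) received ethanol and then that buffer.

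The labels disagree on some points of this design. AOAH is placed in the pretreatment by the treatment protocol and in the activation step by the sample descriptions. Anti-CD3 is called plate-bound in one place and bead-bound in another, and the medium is given as with or without interleukin-2. Glycerol is not named for the AOAH group, so a part of the buffer in the difference between AOAH and vehicle cannot be told apart from AOAH itself. Batch numbers run from 1 to 4 in the labels, the last of them without a PC library. No label tells whether libraries stem from different animals or cultures, and the p-values therefore speak only for the spread among libraries, possibly technical.

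Replication is prepared in G1, when the origin recognition complex (Orc1 to Orc6), Cdc6 and Cdt1 load the Mcm2 to Mcm7 ring onto DNA, a step called licensing. In S phase Cdc45 and the GINS complex join the ring to make the active helicase, polymerase alpha-primase lays down primers, polymerases epsilon and delta extend them, and the PCNA clamp, put on DNA by replication factor C (RFC), holds the polymerases in place. Resting T cells carry little of this machinery and build it after activation, largely through E2F transcription factors, before a burst of rapid divisions.

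The libraries were alike in overall composition, with 11423 to 11739 genes at 1 TPM or more and 3.39% to 3.62% of TPM in mitochondrial transcripts. TPM keeps no sequencing depth, which is therefore unknown for each library. In the authors' deposited table the average normalized count of the 46 genes was never below 363 (Dscc1) in either comparison. T cell identity was checked with 7 markers (Cd2, Cd3d, Cd3e, Cd3g, Cd8a, Cd8b1 and Thy1), all of them present, which summed to 1965 to 2013 TPM with AOAH, 2223 to 2252 TPM with vehicle and 2448 to 2534 TPM with PC. Limma called 6 of the 7 lower with AOAH and 7 of 7 higher with PC, or 4 of 7 higher without PC 2, without PC 3 or without vehicle 1. The lists of NK, myeloid and erythroid markers (4, 6 and 3 genes in the table) each summed to at most 3.35 TPM, with Siglech at 0 in every AOAH and vehicle library, Cd14 at 0 with vehicle, Alas2 at 0 with AOAH and Hba-a1 at 0 with AOAH and vehicle. Of the 3 CD4 T cell markers, Cd4 and Foxp3 were under 1 TPM in every AOAH and PC library. The other, Zbtb7b, ran from 1.4 to 3.5 TPM with AOAH, 1.54 to 3.24 TPM with vehicle and 2.66 to 6.1 TPM with PC. The 7 B cell markers summed to 131 to 140.2 TPM with AOAH, 151 to 157 TPM with vehicle and 167 to 173 TPM with PC, nearly all of it Ighm, while 5 of the 7 were under 1 TPM throughout. The nuclear RNAs Malat1 and Neat1 together made 112 to 156 TPM with AOAH, 231 to 235 TPM with vehicle and 301 to 392 TPM with PC. The T cell, B cell and nuclear RNA sums moved opposite to the replication genes below, and their part in the results was not tested.

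The replication genes were higher with AOAH and lower with PC than with vehicle. With AOAH 41 of the 46 rose and 0 fell, and with PC 45 of the 46 fell and 0 rose. Calls were made with limma on log2(TPM + 1) at a two-sided Benjamini-Hochberg adjusted p under 0.05 over all genes tested, and all adjusted p-values and changes below come from that fit. Of all 11561 genes tested for AOAH, 13.1% were called higher and 12.1% lower (25.2% in all). Of all 11628 genes tested for PC, against vehicle 1 to 3 only, 11.2% were called lower and 8.27% higher (19.5% in all). None of the 46 genes had a change in the other direction, at any p. The median log2 change of the 46 was 0.23 with AOAH (0.11 to 0.49) and -0.43 with PC (-1.01 to -0.15), beside medians of 0.01 and -0.01 over all genes tested. In TPM this was a rise of 8.23% to 40.9% of the vehicle mean with AOAH, with a median of 17.3%, and a fall of 9.66% to 50.5% with PC, with a median of 25.8%. The comparisons with AOAH and with PC share vehicle libraries and are therefore not independent of each other. In bulk RNA, fewer cells in S phase and less replication RNA per cell cannot be told apart.

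Summed over the 46 genes, transcripts came to 7217 ± 71.2 TPM with AOAH (SD, n = 4), 6112 ± 249.6 TPM with vehicle (SD, n = 4) and 4673 ± 170.2 TPM with PC (SD, n = 3). The sum ran from 7134 to 7297 TPM over the AOAH libraries, from 5879 to 6338 TPM over the vehicle libraries and from 4484 to 4814 TPM over the PC libraries, so the groups did not overlap. Gene by gene, every AOAH library lay above every vehicle library for 38 of the 46 genes, as it did for 15.1% of all genes tested. Every PC library lay below vehicle 1 to 3 for 45 of the 46, as it did for 21.4% of all genes tested. The vehicle libraries were not alike: vehicle 1 and 3 both lay above vehicle 2 and 4 for 36 of the 46 genes, an order found for 32.6% of 11595 genes at a mean of 1 TPM or more. Within PC, PC 1 was the highest library for 34 genes and PC 2 the lowest for 33.

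**Figure D1:**
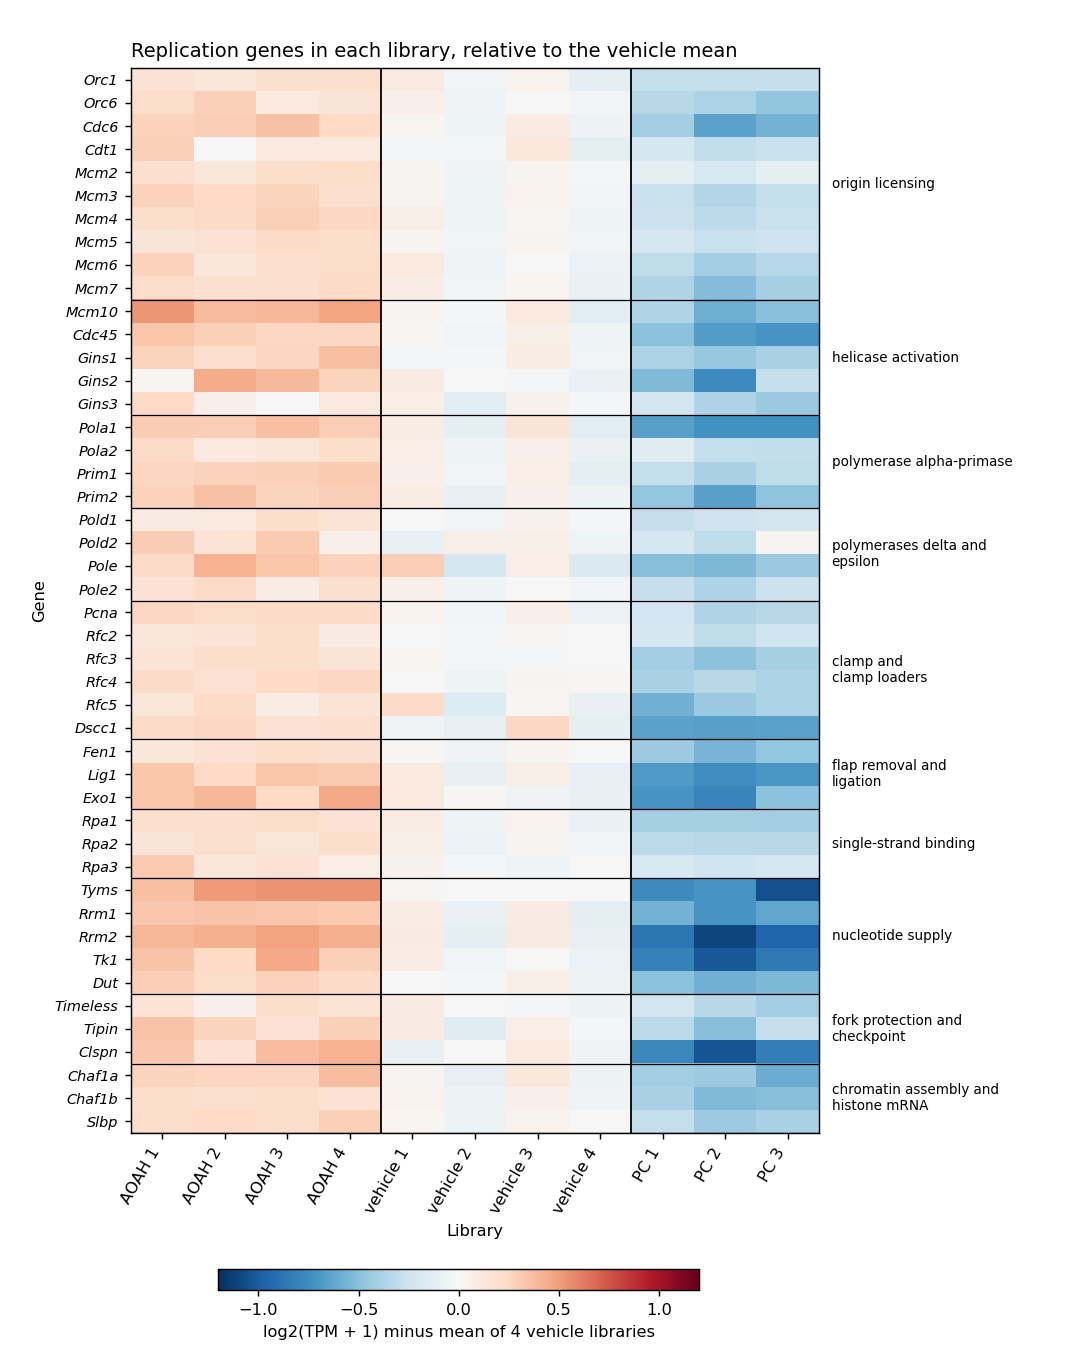
Colour gives log2(TPM + 1) of each gene (rows, in order of role) in each library (columns) minus the mean of the 4 vehicle libraries, red for higher and blue for lower. AOAH columns are red for nearly all 46 genes, PC columns are blue except for Pold2 in PC 3, and the deepest blue is in the nucleotide supply rows.

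Compared directly, AOAH exceeded PC for 46 of 46 genes, beside 24.3% of all 11596 genes tested (21.5% were lower, 45.8% called in all). The groups did not overlap for any of the 46, and every AOAH library lay above every PC library for 26.8% of all genes tested. The median log2 difference was 0.62 (0.33 to 1.41), and the ratio of mean TPM ran from 1.26 for Mcm2 to 2.67 for Rrm2 with a median of 1.55. The direct difference held under all 15 alternative settings for all 46 genes.

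Levels differed far more between genes than between groups. TPM is corrected for length, so levels of different genes can be set side by side: with vehicle, Pcna was the highest at 787 TPM and Gins3 the lowest at 12.8 TPM. Mcm2 to Mcm7, which form 1 ring with 1 copy of each subunit, lay within a ratio of 2.05 with AOAH, 2.10 with vehicle and 2.00 with PC between the highest (Mcm6) and the lowest (Mcm4). The 4 RFC small subunits lay within a ratio of 2.66 with AOAH and vehicle and 3.12 with PC, and the 3 RPA subunits within 2.94, 2.89 and 2.74. The 3 GINS subunits were further apart, since Gins1 exceeded Gins3 by a ratio of 5.29 with AOAH, 4.73 with vehicle and 4.60 with PC.

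Promoters are shown because the 46 genes moved together and E2F sites are the classical shared element of replication genes. RefSeq promoter windows (GRCm38.p6, 250 bases before to 50 after each start) were found for 37 of the 46 genes, and were searched on both strands for the E2F letters TTTCCCGC, TTTCGCGC, TTTGCCGC and TTTGGCGC, for CCAAT (bound by NF-Y) and for TTTGAA (the cell cycle homology region of mitotic genes). A gene was counted if any of its starts had a match. E2F letters were present for 14 of 37 genes (37.8%), against 704 of 27025 genes (2.6%) in the whole promoter table, 445 of 8529 genes (5.22%) at a mean of 1 TPM or more here and 12 of 42 other genes of replication (28.6%). CCAAT was present for 23 of 37 (62.2%), against 41.1% of the table, 43.7% of the genes at 1 TPM or more, 45.2% of the other replication genes and 82.8% of 29 mitosis genes. TTTGAA was present for 5 of 37 (13.5%), close to the 14.5% of genes at 1 TPM or more, against 20.2% of the table, 21.4% of the other replication genes and 75.9% of the mitosis genes. The last 150 bases before the start follow, 5′ to 3′ on the gene's own strand, for the 7 genes with an E2F match inside them and for Rrm2, Tk1 and Tyms, of nucleotide supply, which had none and were chosen after their values were seen. Capitals mark E2F and CCAAT letters in either direction. Mcm6 carries E2F letters on both strands that overlap in a run of 12 bases.
Mcm6: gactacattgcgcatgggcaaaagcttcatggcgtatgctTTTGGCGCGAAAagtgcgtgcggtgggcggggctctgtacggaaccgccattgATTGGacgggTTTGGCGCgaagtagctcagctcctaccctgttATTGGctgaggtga
Mcm5: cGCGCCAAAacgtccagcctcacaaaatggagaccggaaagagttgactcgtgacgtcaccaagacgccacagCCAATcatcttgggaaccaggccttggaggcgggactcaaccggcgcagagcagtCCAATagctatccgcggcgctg
Cdc6: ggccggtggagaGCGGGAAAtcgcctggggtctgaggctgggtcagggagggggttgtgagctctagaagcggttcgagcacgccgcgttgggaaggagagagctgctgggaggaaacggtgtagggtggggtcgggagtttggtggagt
Orc1: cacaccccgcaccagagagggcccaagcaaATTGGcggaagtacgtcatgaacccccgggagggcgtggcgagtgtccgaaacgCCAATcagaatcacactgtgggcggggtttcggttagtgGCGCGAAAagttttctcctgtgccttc
Gins3: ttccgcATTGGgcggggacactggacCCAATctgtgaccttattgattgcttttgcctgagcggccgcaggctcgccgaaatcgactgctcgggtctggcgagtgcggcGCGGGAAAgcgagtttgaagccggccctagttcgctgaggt
Pola1: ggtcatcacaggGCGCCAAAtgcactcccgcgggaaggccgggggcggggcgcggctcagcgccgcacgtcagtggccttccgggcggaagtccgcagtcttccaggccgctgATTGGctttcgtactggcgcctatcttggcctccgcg
Rfc3: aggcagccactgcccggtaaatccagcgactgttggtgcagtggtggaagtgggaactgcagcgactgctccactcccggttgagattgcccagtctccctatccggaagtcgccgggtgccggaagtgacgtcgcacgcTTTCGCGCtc
Rrm2: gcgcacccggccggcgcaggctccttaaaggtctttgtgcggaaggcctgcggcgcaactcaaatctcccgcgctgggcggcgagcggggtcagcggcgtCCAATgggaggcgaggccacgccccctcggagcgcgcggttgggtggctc
Tk1: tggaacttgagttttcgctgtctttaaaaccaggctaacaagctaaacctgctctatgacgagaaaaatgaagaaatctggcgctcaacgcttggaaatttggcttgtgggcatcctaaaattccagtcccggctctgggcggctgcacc
Tyms: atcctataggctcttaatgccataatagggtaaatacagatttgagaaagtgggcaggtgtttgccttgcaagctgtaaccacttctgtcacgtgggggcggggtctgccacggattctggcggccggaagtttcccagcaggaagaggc
In GRCm38.p6 the windows printed are chr1:128359706-128359855 (minus strand) for Mcm6, chr8:75109359-75109508 (plus strand) for Mcm5, chr11:98908001-98908150 (plus strand) for Cdc6, chr4:108579304-108579453 (plus strand) for Orc1, chr8:95633409-95633558 (plus strand) for Gins3, chrX:93632156-93632305 (minus strand) for Pola1 and chr5:151651209-151651358 (minus strand) for Rfc3. Those of the other genes are chr12:24708104-24708253 (plus strand) for Rrm2, chr11:117826015-117826164 (minus strand) for Tk1 and chr5:30073626-30073775 (minus strand) for Tyms. The 14 genes with E2F letters had a median log2 change of 0.20 with AOAH and -0.37 with PC, and the 23 without them 0.23 and -0.43. A match describes letters in a window and does not show that a factor binds there.

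Origin licensing genes rose with AOAH for 9 of 10 and fell with PC for 10 of 10, with median log2 changes of 0.20 and -0.32. Cdc6, the ATPase that loads the helicase ring, stood at 55.2, 56.2, 58.5 and 54.0 TPM with AOAH, 46.3, 43.8, 48.7 and 43.5 with vehicle and 34.0, 28.9 and 30.4 with PC, in library order. Its log2 change ± standard error was 0.29 ± 0.04 with AOAH (adjusted p = 0.00198) and -0.56 ± 0.07 with PC (adjusted p = 0.00288), the largest of the 10 in both comparisons, and none of the 3 groups overlapped. Cdt1, its loading partner, stood at 94.1, 77.2, 83.4 and 83.2 TPM with AOAH, 76.1, 76.2, 84.1 and 71.2 with vehicle and 66.2, 62.3 and 63.7 with PC. The AOAH difference of 0.13 ± 0.07 did not pass (adjusted p = 0.178), with AOAH 2 at 77.2 TPM among the vehicle libraries and vehicle 3 at 84.1 TPM above 3 of the AOAH libraries. Cdt1 fell with PC by a log2 change of -0.29 ± 0.05 (adjusted p = 0.00892). For the origin recognition subunits, Orc1 averaged 24.6 ± 0.495 TPM with AOAH, 21.7 ± 1.57 TPM with vehicle and 17.7 ± 0.0929 TPM with PC (SD, n = 4, 4 and 3). Orc6 averaged 116 ± 5.89, 101 ± 3.33 and 76.8 ± 3.78 TPM in the same groups. Orc1 rose close to the threshold with AOAH (0.18 ± 0.05, adjusted p = 0.042): the call was lost when batch was blocked (adjusted p = 0.0756) and without any 1 library other than vehicle 1 (adjusted p 0.0554 to 0.101).

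The 6 subunits of the helicase ring rose with AOAH by log2 changes of 0.19 to 0.25 and fell with PC by -0.45 to -0.15, 6 of 6 in each comparison. Mcm2 stood at 218, 208, 219 and 221 TPM with AOAH, 193, 184, 193 and 187 with vehicle and 176, 165 and 174 with PC. It had the smallest PC change of all 46 genes, -0.15 ± 0.04 (adjusted p = 0.0304), a call that was lost without any 1 of PC 1, PC 2, PC 3, vehicle 1 and vehicle 3 (adjusted p 0.0505 to 0.0972) and under unweighted TMM rescaling (adjusted p = 0.0540), while its rise with AOAH was 0.19 ± 0.03 (adjusted p = 0.00148). Mcm3 stood at 387, 377, 384 and 366 TPM with AOAH, 327, 308, 329 and 313 with vehicle and 265, 249 and 261 with PC. Mcm4 stood at 183, 185, 192 and 188 TPM with AOAH, 166, 153, 161 and 153 with vehicle and 132, 127 and 131 with PC. In both genes all AOAH libraries exceeded all vehicle libraries, and all PC libraries lay below them. Mcm5 read 298, 302, 312 and 310.4 TPM with AOAH, 273, 260.1, 273 and 261 with vehicle and 231, 222 and 225 with PC. Mcm6, the most abundant of the ring, read 402, 365, 382 and 387 TPM with AOAH, 360.2, 324, 332 and 316 with vehicle and 269, 249 and 262 with PC. In Mcm6 the lowest AOAH library, AOAH 2, and the highest vehicle library, vehicle 1, lay close, at 365 and 360.2 TPM. Mcm7 read 373, 366, 367 and 375 TPM with AOAH, 341, 312, 326 and 303 with vehicle and 249, 223 and 243 with PC, and had the largest PC change of the ring, -0.45 ± 0.05 (adjusted p = 0.00202). Over the 6 genes adjusted p ran from 0.000478 to 0.00887 with AOAH and from 0.00202 to 0.0304 with PC.

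Genes that turn the loaded ring into an active helicase rose with AOAH for 4 of 5 and fell with PC for 5 of 5, with medians of 0.28 and -0.53. Mcm10, which helps fire the assembled helicase, stood at 75.1, 67.6, 68.5 and 72.4 TPM with AOAH, 53.2, 50.9, 56.4 and 47.4 with vehicle and 40.1, 34.2 and 36.4 with PC. Its rise with AOAH of 0.44 ± 0.06 (adjusted p = 0.000761) was among the 3 largest of the 46 genes, beside Tyms and Rrm2, and it fell with PC by a log2 change of -0.53 ± 0.07 (adjusted p = 0.00318). Cdc45, a subunit of the active helicase, stood at 91.3, 88.2, 85.9 and 85.5 TPM with AOAH, 72.9, 70.4, 76.0 and 69.3 with vehicle and 51.1, 45.0 and 43.7 with PC. Its changes were 0.28 ± 0.04 with AOAH (adjusted p = 0.000942) and -0.64 ± 0.06 with PC (adjusted p = 0.00155), with no overlap among the groups. Gins3, the least abundant of the 46 genes, stood at 15.2, 13.3, 12.8 and 13.9 TPM with AOAH, 13.5, 11.6, 13.3 and 12.6 with vehicle and 10.8, 9.62 and 9.07 with PC. The AOAH and vehicle ranges of Gins3 overlapped and the difference of 0.11 ± 0.07 did not pass (adjusted p = 0.293). Its fall with PC, -0.35 ± 0.09 (adjusted p = 0.0314), was lost when batch was blocked (adjusted p = 0.0522) and without PC 2, PC 3, vehicle 1 or vehicle 3 (adjusted p 0.0909 to 0.101). Gins1 averaged 73.0 ± 3.41 TPM with AOAH, 60.3 ± 2.55 TPM with vehicle and 45.1 ± 1.31 TPM with PC, and changed by 0.27 ± 0.04 with AOAH (adjusted p = 0.00237) and -0.42 ± 0.05 with PC (adjusted p = 0.00205). Gins2 averaged 64.7 ± 8.13, 52.7 ± 2.75 and 36.7 ± 6.42 TPM, with AOAH 1 at 53.6 TPM inside the vehicle range. Gins2 was called higher with AOAH and lower with PC (adjusted p = 0.0398 with AOAH and adjusted p = 0.0196 with PC). Its AOAH call was lost when batch was blocked (adjusted p = 0.0817) and without any 1 library other than AOAH 1 and vehicle 1 (adjusted p 0.0772 to 0.0976), and its PC call without PC 1, vehicle 1 or vehicle 3 (adjusted p 0.0513 to 0.0691).

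The 4 subunits of polymerase alpha-primase, which makes the primers that start new DNA strands, rose with AOAH and fell with PC, 4 of 4 each way, with medians of 0.29 and -0.46. Pola1, the catalytic subunit, stood at 30.8, 30.7, 32.0 and 30.6 TPM with AOAH, 26.4, 22.9, 27.7 and 22.4 with vehicle and 15.3, 14.6 and 14.5 with PC. PC libraries thus held at most 15.35 TPM where AOAH libraries held at least 30.55 TPM, and the log2 changes were 0.31 ± 0.07 with AOAH (adjusted p = 0.0095) and -0.75 ± 0.08 with PC (adjusted p = 0.00168). Prim2, the large primase subunit, stood at 61.8, 65.2, 61.1 and 62.7 TPM with AOAH, 54.1, 47.7, 52.8 and 48.7 with vehicle and 36.6, 31.9 and 36.0 with PC. It changed by 0.30 ± 0.05 with AOAH (adjusted p = 0.00209) and -0.55 ± 0.07 with PC (adjusted p = 0.00313), with no overlap among the groups. Pola2, the accessory subunit, moved least of the 4 and stood at 98.9, 91.6, 92.9 and 97.8 TPM with AOAH, 88.8, 81.0, 87.8 and 79.3 with vehicle and 76.1, 68.9 and 68.2 with PC. Its changes were 0.18 ± 0.05 with AOAH (adjusted p = 0.0203) and -0.27 ± 0.06 with PC (adjusted p = 0.0187). The Pola2 call with AOAH was lost without AOAH 1, AOAH 4, vehicle 2 or vehicle 4 (adjusted p 0.0518 to 0.0583), and the call with PC without PC 2, PC 3, vehicle 1 or vehicle 3 (adjusted p 0.0634 to 0.0663). Prim1, the catalytic primase subunit, averaged 134 ± 2.46 TPM with AOAH, 110.5 ± 6.88 TPM with vehicle and 87.8 ± 3.18 TPM with PC.

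Of 4 subunits of the elongating polymerases delta and epsilon, 3 rose with AOAH and 3 fell with PC, with medians of 0.19 and -0.28. Pole, the catalytic subunit of the leading strand polymerase, stood at 44.2, 50.6, 47.7 and 45.6 TPM with AOAH, 46.3, 32.6, 39.8 and 33.2 with vehicle and 26.1, 25.5 and 27.3 with PC. Vehicle 1 at 46.3 TPM lay inside the AOAH range while vehicle 2 and 4 lay at 32.6 and 33.2 TPM, and the AOAH difference of 0.31 ± 0.11 did not pass (adjusted p = 0.058), but passed without vehicle 1 (adjusted p = 0.00751). That difference also passed with a filter of 5 TPM, under unweighted TMM rescaling and in 1 fit over all 11 libraries (adjusted p 0.0311 to 0.0454). Pole fell with PC by a log2 change of -0.56 ± 0.12 (adjusted p = 0.0187), a call lost without PC 1, PC 2 or vehicle 3 (adjusted p 0.0583 to 0.065). Pole2, the second subunit of the same enzyme, stood at 32.6, 33.9, 30.6 and 33.0 TPM with AOAH, 30.0, 28.0, 28.9 and 28.1 with vehicle and 23.5, 22.1 and 23.9 with PC. It changed by 0.17 ± 0.04 with AOAH (adjusted p = 0.0196) and -0.31 ± 0.05 with PC (adjusted p = 0.00858). Its AOAH call was lost when batch was blocked (adjusted p = 0.0598) and without AOAH 2, AOAH 4, vehicle 2 or vehicle 4 (adjusted p 0.052 to 0.0563). Pold2, an accessory subunit of polymerase delta, stood at 316, 285, 317 and 265 TPM with AOAH, 239, 268, 268 and 245 with vehicle and 222, 206 and 261 with PC. PC 3 at 260.5 TPM lay inside the vehicle range, and Pold2 was the 1 gene of the 46 that was not called with PC (-0.18 ± 0.09, adjusted p = 0.226). It was called lower without PC 3 (adjusted p = 0.0485). Its rise with AOAH (0.21 ± 0.06, adjusted p = 0.0422) was lost without any 1 library other than AOAH 4 and vehicle 3 (adjusted p 0.054 to 0.104), and AOAH 4 at 265.2 TPM lay inside the vehicle range. Pold1, the catalytic subunit of polymerase delta, averaged 113 ± 3.76 TPM with AOAH, 102 ± 2.83 TPM with vehicle and 85.6 ± 1.81 TPM with PC.

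The sliding clamp and its loaders rose with AOAH for 4 of 6 and fell with PC for 6 of 6. Pcna, the clamp itself and a common marker of S phase, stood at 937, 915, 922 and 921 TPM with AOAH, 811, 766, 821 and 748 with vehicle and 668, 611 and 623 with PC. It changed by 0.23 ± 0.03 with AOAH (adjusted p = 0.000817) and -0.33 ± 0.04 with PC (adjusted p = 0.00287), and none of the groups overlapped. Rfc2 moved least of the loader subunits and stood at 160.1, 163, 168 and 155 TPM with AOAH, 145, 144, 146 and 145 with vehicle and 125, 117 and 123 with PC. Its changes were 0.15 ± 0.03 with AOAH (adjusted p = 0.00414) and -0.25 ± 0.03 with PC (adjusted p = 0.00341), the vehicle libraries lying within 143.5 to 146.4 TPM. Rfc5, another small loader subunit, stood at 60.2, 63.7, 57.7 and 61.0 TPM with AOAH, 63.6, 48.4, 55.2 and 50.8 with vehicle and 35.9, 39.5 and 41.5 with PC. Vehicle 1 at 63.6 TPM lay just under the highest AOAH library, and the AOAH difference of 0.16 ± 0.08 did not pass (adjusted p = 0.168), but passed without vehicle 1 (adjusted p = 0.0171). Rfc5 fell with PC (-0.50 ± 0.10, adjusted p = 0.0172), a call lost without PC 1, PC 2 or vehicle 3 (adjusted p 0.0522 to 0.055). Dscc1 belongs to the alternative loader that acts in sister chromatid cohesion and stood at 24.3, 24.6, 23.5 and 23.8 TPM with AOAH, 20.0, 19.2, 24.6 and 19.1 with vehicle and 12.8, 12.7 and 12.8 with PC. The 3 PC libraries were nearly equal, and the fall of -0.68 ± 0.09 (adjusted p = 0.00381) was the largest of these 6. With AOAH the Dscc1 difference of 0.22 ± 0.08 did not pass (adjusted p = 0.068), with vehicle 3 at 24.6 TPM among the AOAH libraries and the others at 19.1 to 20.0 TPM, but it passed without vehicle 3 (adjusted p = 0.00274). That difference also passed under unweighted TMM rescaling, under quantile normalization and in 1 fit over all 11 libraries (adjusted p 0.0386 to 0.0495). Rfc3 averaged 114 ± 2.45, 100.4 ± 1.19 and 74.1 ± 2.55 TPM with AOAH, vehicle and PC, and Rfc4 104 ± 2.13, 88.7 ± 2.41 and 68.5 ± 1.45 TPM, each without overlap among the groups.

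**Figure D2:**
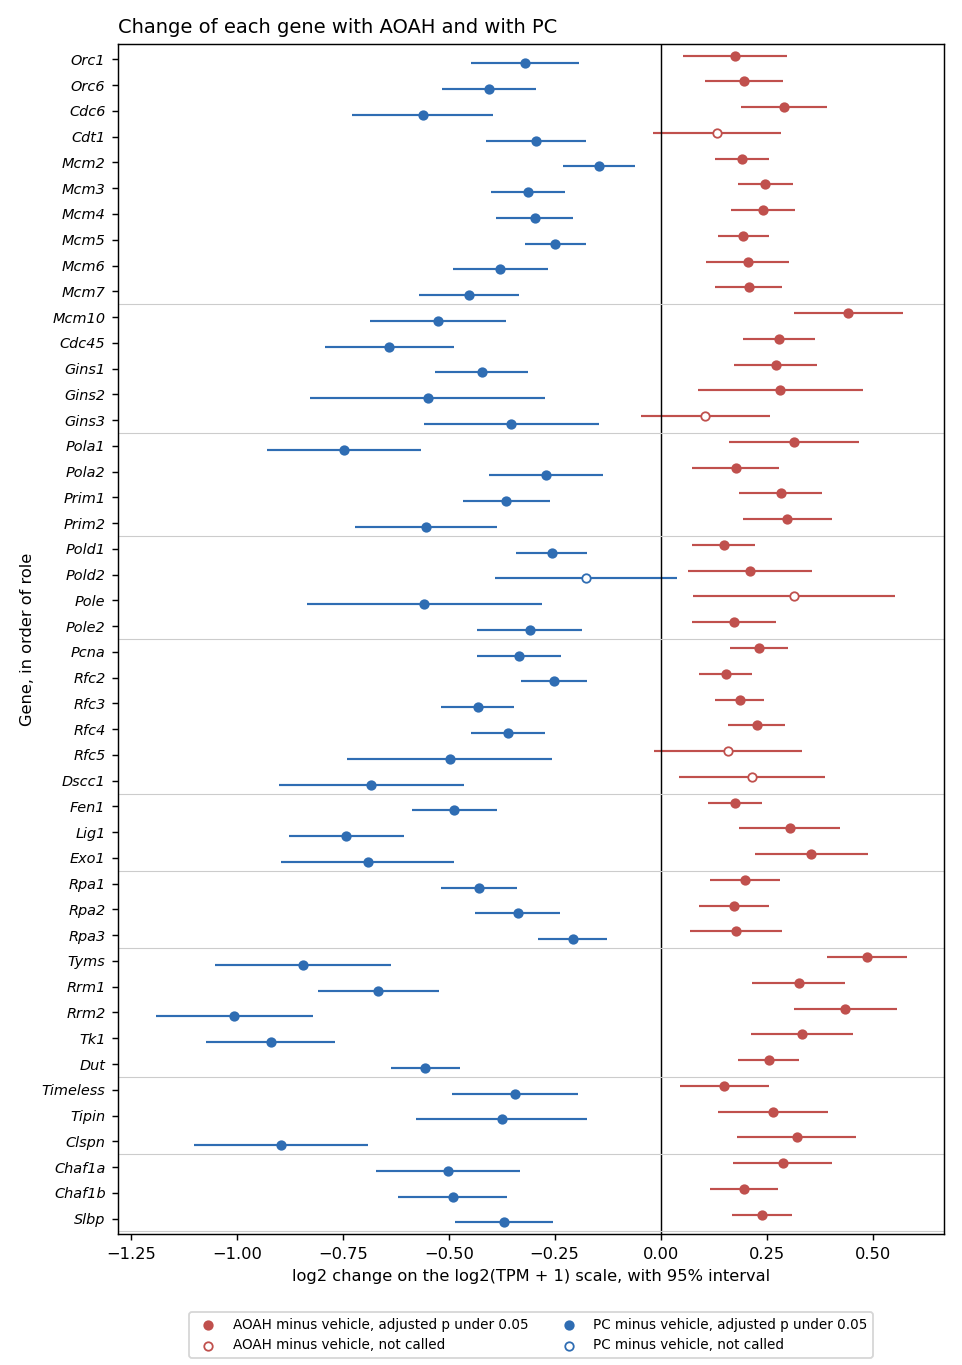
Points give the log2 change of each gene on the log2(TPM + 1) scale with AOAH (red) and with PC (blue) against vehicle, bars its 95% interval from limma, and open points genes that were not called. All red points lie right of 0 and all blue points left of it, and 5 red points (Cdt1, Gins3, Pole, Rfc5 and Dscc1) and 1 blue point (Pold2) are open.

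Lig1 and Fen1, which finish the lagging strand, and the exonuclease Exo1 rose with AOAH and fell with PC, 3 of 3 each way. Lig1, which seals the joined fragments, stood at 173, 162, 173 and 171 TPM with AOAH, 149, 129, 145 and 128 with vehicle and 85.5, 81.4 and 84.0 with PC. The PC libraries lay between 81.4 and 85.5 TPM, against at least 128 TPM in every vehicle library, and the changes were 0.30 ± 0.05 with AOAH (adjusted p = 0.0034) and -0.74 ± 0.06 with PC (adjusted p = 0.000815). Fen1, the nuclease that trims the flap left by the primer, stood at 130.4, 134, 137 and 136 TPM with AOAH, 119.9, 115, 122 and 119 with vehicle and 87.4, 80.4 and 86.1 with PC. It changed by 0.18 ± 0.03 with AOAH (adjusted p = 0.00235) and -0.49 ± 0.04 with PC (adjusted p = 0.00106). Exo1, an exonuclease of mismatch repair and end resection, stood at 39.2, 41.0, 36.5 and 42.5 TPM with AOAH, 33.5, 31.1, 30.0 and 28.9 with vehicle and 18.6, 17.4 and 21.7 with PC. It changed by 0.36 ± 0.06 with AOAH (adjusted p = 0.00285) and -0.69 ± 0.09 with PC (adjusted p = 0.00287), and its groups did not overlap.

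The 3 subunits of RPA, which coats single-stranded DNA at the fork, rose with AOAH by 0.17 to 0.20 and fell with PC by -0.43 to -0.21. Rpa1, the large subunit, stood at 296, 296, 299 and 290.3 TPM with AOAH, 274, 248, 264 and 244 with vehicle and 195, 194 and 193 with PC. The 3 PC values lay within 193 to 195 TPM, and the changes were 0.20 ± 0.04 with AOAH (adjusted p = 0.00434) and -0.43 ± 0.04 with PC (adjusted p = 0.00113). Rpa2 stood at 98.9, 102, 98.2 and 103 TPM with AOAH, 93.4, 84.6, 91.0 and 87.0 with vehicle and 70.9, 70.6 and 70.6 with PC, with changes of 0.17 ± 0.04 with AOAH (adjusted p = 0.00843) and -0.34 ± 0.04 with PC (adjusted p = 0.00298). Rpa3, the small subunit, stood at 175, 154, 159 and 148 TPM with AOAH, 145, 139, 136 and 141 with vehicle and 123, 118 and 122 with PC. It changed by 0.18 ± 0.05 with AOAH (adjusted p = 0.0258) and -0.21 ± 0.03 with PC (adjusted p = 0.00794). The Rpa3 call with AOAH was lost without AOAH 3, vehicle 2, vehicle 3 or vehicle 4 (adjusted p 0.0551 to 0.0623).

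Nucleotide supply genes, which make the deoxynucleotides that polymerases consume, had the largest median change of the 10 roles in both comparisons. All 5 rose with AOAH with a median of 0.33, and all 5 fell with PC with a median of -0.84. Rrm2, the S phase subunit of ribonucleotide reductase, stood at 242, 246, 255 and 247 TPM with AOAH, 196, 169, 197 and 170.4 with vehicle and 99.6, 84.8 and 94.0 with PC. The PC mean was 50.5% below that of vehicle 1 to 3, and the changes of 0.44 ± 0.05 with AOAH (adjusted p = 0.000635) and -1.01 ± 0.08 with PC (adjusted p = 0.000815) made it the largest fall of the 46 genes. Tyms, the thymidylate synthase and target of fluorouracil, stood at 92.7, 103, 105 and 105 TPM with AOAH, 72.8, 71.6, 71.5 and 71.8 with vehicle and 42.1, 43.5 and 34.1 with PC. The 4 vehicle values lay within 71.5 to 72.8 TPM, and the changes were 0.49 ± 0.04 with AOAH (adjusted p = 8.91e-05) and -0.84 ± 0.09 with PC (adjusted p = 0.00176), the largest rise of the 46. Dut, the dUTPase that keeps uracil out of DNA, moved least of the 5 and stood at 271, 257, 267 and 259 TPM with AOAH, 222, 219, 231 and 211 with vehicle and 157, 148 and 151 with PC. It changed by 0.26 ± 0.03 with AOAH (adjusted p = 0.000692) and -0.55 ± 0.03 with PC (adjusted p = 0.000684). Tk1, the cytosolic thymidine kinase of the salvage route, averaged 74.9 ± 4.95 TPM with AOAH, 59.2 ± 2.95 TPM with vehicle and 31.4 ± 2.39 TPM with PC (SD, n = 4, 4 and 3), and its PC change of -0.92 ± 0.06 (adjusted p = 0.000707) was second only to that of Rrm2. Rrm1, the large reductase subunit, averaged 164 ± 1.54, 131 ± 9.89 and 84.2 ± 4.24 TPM, and changed by 0.33 ± 0.05 with AOAH (adjusted p = 0.00161) and -0.67 ± 0.06 with PC (adjusted p = 0.00117). The groups did not overlap for any of these 5 genes.

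**Figure D3:**
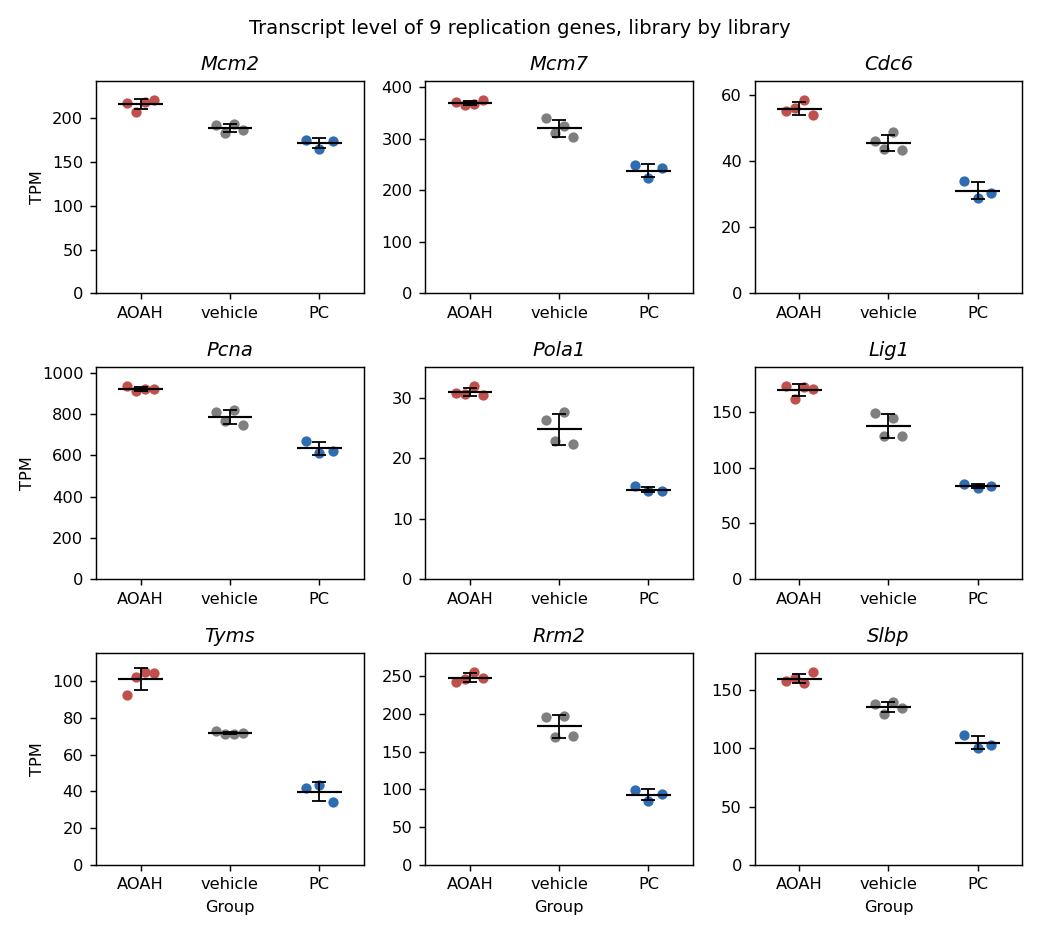
Points give TPM of 9 replication genes in each library (vertical axes start at 0), with the mean (long line) and SD (bars) of the 4 AOAH, 4 vehicle and 3 PC libraries. AOAH lies above vehicle and vehicle above PC in all 9 panels with no overlap, and the steps are smallest in Mcm2 and largest in Rrm2 and Tyms.

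Fork protection and checkpoint genes rose with AOAH and fell with PC, 3 of 3 each way. Clspn, which carries the signal of stalled forks to the kinase Chk1, stood at 43.9, 39.5, 45.3 and 46.8 TPM with AOAH, 32.8, 35.1, 38.0 and 33.8 with vehicle and 20.0, 16.4 and 19.1 with PC. Its PC change of -0.90 ± 0.09 (adjusted p = 0.00145) was exceeded among the 46 genes only by Rrm2 and Tk1, and its rise with AOAH was 0.32 ± 0.06 (adjusted p = 0.00594). Timeless and Tipin form the complex that keeps polymerase and helicase coupled. Timeless stood at 46.5, 43.2, 47.9 and 46.4 TPM with AOAH, 44.2, 41.2, 40.6 and 39.6 with vehicle and 35.4, 32.5 and 30.8 with PC. AOAH 2 at 43.2 TPM lay below vehicle 1 at 44.2 TPM, and the rise of 0.15 ± 0.05 (adjusted p = 0.0425) was lost when batch was blocked (adjusted p = 0.0775) and without any 1 library other than AOAH 2 and vehicle 1 (adjusted p 0.0875 to 0.105). Timeless fell with PC by a log2 change of -0.34 ± 0.06 (adjusted p = 0.0111). Tipin, far more abundant than its partner, stood at 472, 448, 419 and 454 TPM with AOAH, 399, 336, 393 and 365 with vehicle and 298, 262 and 308 with PC. It changed by 0.27 ± 0.06 with AOAH (adjusted p = 0.00966) and -0.38 ± 0.08 with PC (adjusted p = 0.0245), and the PC call was lost without PC 1, PC 2, vehicle 1 or vehicle 3 (adjusted p 0.0571 to 0.0844).

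Chromatin assembly and histone mRNA genes rose with AOAH and fell with PC, 3 of 3 each way. Chaf1a and Chaf1b encode subunits of CAF-1, which deposits histones behind the fork. Chaf1a stood at 68.6, 67.9, 68.0 and 73.4 TPM with AOAH, 58.0, 53.1, 61.8 and 54.4 with vehicle and 42.2, 41.6 and 37.3 with PC, with changes of 0.29 ± 0.05 with AOAH (adjusted p = 0.00397) and -0.50 ± 0.07 with PC (adjusted p = 0.00453). Chaf1b stood at 66.1, 65.1, 66.1 and 64.3 TPM with AOAH, 58.7, 54.6, 59.3 and 55.3 with vehicle and 43.2, 39.0 and 39.8 with PC, with changes of 0.20 ± 0.04 with AOAH (adjusted p = 0.00415) and -0.49 ± 0.05 with PC (adjusted p = 0.00205). Slbp, which binds the stem-loop at the end of replication-dependent histone mRNAs, stood at 158, 160.1, 156 and 166 TPM with AOAH, 138, 129.6, 139.7 and 135 with vehicle and 111, 100.1 and 103 with PC. It changed by 0.24 ± 0.03 with AOAH (adjusted p = 0.000834) and -0.37 ± 0.05 with PC (adjusted p = 0.00352), and for all 3 genes no group overlapped another.

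Other genes of replication, 49 genes not among the 46, moved the same way for most but not all: 30 rose and 3 fell with AOAH (median 0.18), and 33 fell and 3 rose with PC (median -0.28). Uhrf1, which recruits the maintenance DNA methyltransferase to new DNA, rose with AOAH (0.31 ± 0.04, adjusted p = 0.000598). Dnmt1, that methyltransferase, and Nasp, a histone chaperone, fell with PC (-0.51 ± 0.05 and -0.31 ± 0.03, adjusted p = 0.00161 and 0.00157). Supt16, a subunit of the FACT histone chaperone, was higher with AOAH than with PC (0.58 ± 0.02, adjusted p = 2.72e-06). Samhd1 went against the list in both comparisons. It encodes the enzyme that breaks down deoxynucleotides, the opposite role to Rrm2, and averaged 151 ± 10.6 TPM with AOAH, 279 ± 2.83 TPM with vehicle and 325 ± 8.72 TPM with PC. Samhd1 fell with AOAH by a log2 change of -0.88 ± 0.04 (adjusted p = 1.23e-05) and rose with PC by 0.21 ± 0.03 (adjusted p = 0.00276). Tk2, the mitochondrial thymidine kinase, fell with AOAH (-0.51 ± 0.10, adjusted p = 0.00624), as did Pold4, the small subunit of polymerase delta (-0.32 ± 0.10, adjusted p = 0.0395). Pold4 and Pole4, a subunit of polymerase epsilon, rose with PC (0.38 ± 0.10 and 0.13 ± 0.03, adjusted p = 0.0452 and 0.0359). The Pold4 and Pole4 calls lay near the threshold, with log2 changes of -0.41 to -0.27 (Pold4, AOAH), 0.26 to 0.46 (Pold4, PC) and 0.11 to 0.14 (Pole4, PC) as each library was left out: the first was lost without any 1 library other than AOAH 4 and vehicle 1 for AOAH (adjusted p 0.0775 to 0.098) and other than vehicle 3 for PC (adjusted p 0.0522 to 0.13), and Pole4 without any 1 library (adjusted p 0.0668 to 0.104) or when batch was blocked (adjusted p = 0.0755). The count of 3 rises with PC fell to 1 without any 1 of PC 1, PC 2, PC 3, vehicle 1 and vehicle 2. With 1 library left out, the rises of this list with AOAH numbered 24 to 31 and its falls with PC 26 to 33.

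Homologous recombination and fork repair genes rose with AOAH for 15 of 23 (median 0.25) and fell with PC for 18 of 23 (median -0.60). With 1 library left out, these counts ran from 11 to 15 with AOAH and from 13 to 18 with PC. Fancd2, of the Fanconi anaemia pathway, changed in both comparisons (0.59 ± 0.09 with AOAH, adjusted p = 0.00187, and -0.87 ± 0.06 with PC, adjusted p = 0.000707). Fanca, of the same pathway, fell with PC (-0.72 ± 0.06, adjusted p = 0.00113). Rad54l was higher with AOAH than with PC (1.08 ± 0.05, adjusted p = 3.53e-06). Mitosis genes had larger medians than the 46 replication genes in both comparisons: 23 of 34 rose with AOAH (median 0.34), and 34 of 34 fell with PC (median -1.08). The mitosis counts ran from 20 to 27 with AOAH and from 32 to 34 with PC as each library was left out. Top2a, the topoisomerase that untangles chromosomes, changed by 0.40 ± 0.06 with AOAH (adjusted p = 0.00142) and -1.21 ± 0.06 with PC (adjusted p = 0.000451). Cks2, a cyclin-dependent kinase subunit, rose with AOAH (0.33 ± 0.05, adjusted p = 0.000981), and Ube2c, a ubiquitin carrier of the anaphase-promoting complex, fell with PC (-1.66 ± 0.10, adjusted p = 0.000684). Ccnb1, the mitotic cyclin B1, was higher with AOAH than with PC (1.72 ± 0.05, adjusted p = 1.26e-06). The difference between the mitosis and replication medians was not tested.

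G1 cyclins, CDKs and E2F genes were mixed: with AOAH 14 of 25 rose and 3 fell (median 0.15), and with PC 14 fell and 2 rose (median -0.36). Without AOAH 3 or without vehicle 4 the 14 rises with AOAH fell to 9. The 14 falls with PC numbered 10 to 14 with 1 library left out. E2f8, a repressor of the E2F family, fell with PC (-1.16 ± 0.08, adjusted p = 0.000707), as did Tfdp1, a partner of E2F factors (-0.45 ± 0.03, adjusted p = 0.00078). In the comparisons with vehicle, the genes called against the list were Cdkn1b, Cdkn1a, Rbl2 and Cdkn2d. Each of these encodes an inhibitor of cyclin-dependent kinases or a pocket protein. Other inhibitors, pocket proteins and repressors moved with the list: the inhibitor Cdkn2c (p18) and the pocket protein Rbl1 (p107) fell with PC (-0.58 ± 0.11 and -0.17 ± 0.05, adjusted p = 0.0131 and 0.0403), and the repressors E2f8 and E2f7 rose with AOAH (0.49 ± 0.07 and 0.34 ± 0.09, adjusted p = 0.0013 and 0.0262). Apart from the fall of E2f8 with PC, these 4 genes were named after their values were seen. The Rbl1 call was lost without any 1 library other than vehicle 2 (adjusted p 0.0643 to 0.123), under the batch block (adjusted p = 0.0957) and under quantile normalization (adjusted p = 0.0504). The Cdkn2c call was lost without vehicle 1 (adjusted p = 0.0517), and that of E2f7 without AOAH 2, AOAH 3, vehicle 2 or vehicle 4 (adjusted p 0.0618 to 0.0704), under the block (adjusted p = 0.0528) and in 1 fit over all 11 libraries (adjusted p = 0.102). Cdkn1b (p27), an inhibitor of cyclin-dependent kinases, averaged 16.4 ± 1.72 TPM with AOAH, 32.3 ± 2.20 TPM with vehicle and 43.0 ± 1.88 TPM with PC. It fell with AOAH (-0.94 ± 0.08, adjusted p = 7.83e-05) and rose with PC (0.41 ± 0.07, adjusted p = 0.00759). Cdkn1a (p21) rose with PC (0.83 ± 0.08, adjusted p = 0.00146). Rbl2 (p130), a pocket protein of resting cells, and Cdkn2d (p19) fell with AOAH (-0.48 ± 0.05 and -0.21 ± 0.06, adjusted p = 0.000309 and 0.0345), and the Cdkn2d call was lost without any 1 library other than AOAH 3 and vehicle 2 (adjusted p 0.0661 to 0.0876). E2f5, a repressive E2F, was lower with AOAH than with PC (-0.30 ± 0.06, adjusted p = 0.00578). It thus went against the list in that direct comparison, and it is neither such an inhibitor nor a pocket protein.

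Replication-dependent histone genes, whose mRNAs mostly lack a poly(A) tail, were read here only through a poly(A) selection, and near-identical copies make single values uncertain. With AOAH 14 of 45 rose and 2 fell (median 0.32), or 9 rose without AOAH 1 or without AOAH 2, and with PC 13 of 41 fell and 3 rose (median -0.57). The histone falls with PC numbered 9 to 13 with 1 library left out. H2ac24, the most abundant of those named by the rule, averaged 2585 ± 99.7 TPM with AOAH, 1988 ± 61.2 TPM with vehicle and 716 ± 21.9 TPM with PC, and changed by 0.38 ± 0.03 (adjusted p = 7.83e-05) and -1.48 ± 0.03 (adjusted p = 8.5e-06). H3c3 fell with PC (-1.15 ± 0.12, adjusted p = 0.00162). H2ac25 and H2bc27, which fell with AOAH, averaged under 5 TPM in every group. The 3 histone rises with PC (H2ac19, H2ac25 and H2bc4) fell to 1 without PC 2, PC 3 or vehicle 1. Of these, H2bc4 averaged only 1.14 TPM with vehicle 1 to 3 and 1.99 TPM with PC.

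**Figure D4:**
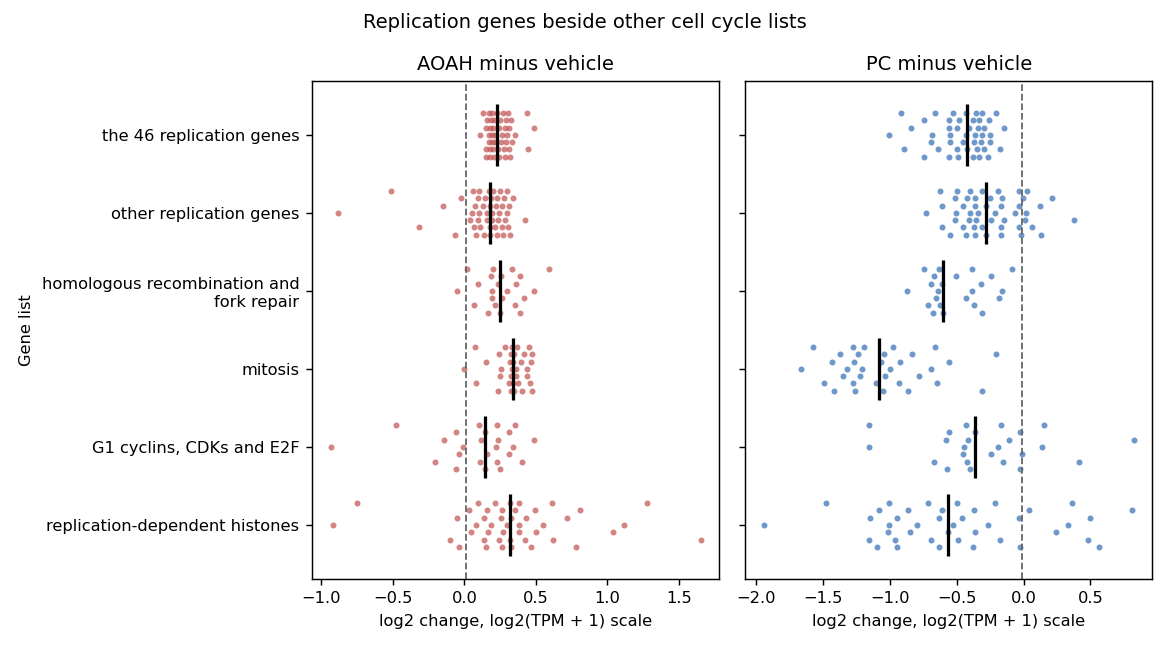
Points give the log2 change of each tested gene on the log2(TPM + 1) scale with AOAH (left) and with PC (right) against vehicle, by list, bars the list's median and dashed lines the median of all genes tested. The 46 replication genes lie on 1 side of 0 in each panel, and the mitosis list lies furthest left with PC at a median of -1.08.

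In the authors' deposited table of the AOAH comparison, made with DESeq2, 38 of the 46 replication genes were higher and 0 lower at an adjusted p under 0.05, with a median log2 fold change of 0.23. Cdt1, Dscc1, Gins3, Orc1, Pole, Pole2, Rfc5 and Rpa3 were not called in the authors' deposited table for AOAH. In the authors' deposited table for PC, 42 were lower and 0 higher with a median of -0.42, and Gins3, Pold2, Pole2 and Rpa3 were not called. The share of all genes called in the deposited tables was not computed here, so these counts stand without a background. Under the alternative settings run on the TPM values, 34 of the 41 rises with AOAH, 38 of the 45 falls with PC and all 46 differences between AOAH and PC kept their call in every setting, and no gene of the 46 changed direction.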

How the data were processed

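Polyadenylated RNA with ERCC spike-ins was made into libraries with unique molecular identifiers and read in pairs, per the labels' protocols. The authors quantified transcripts with RSEM against mm39, per the submitters' processing notes, and the deposited values are log2(TPM + 1), as the values themselves show. Aligner, annotation, use of the identifiers and versions were not given in the sources used here. For each gene the authors' deposited DESeq2 tables give a log2 fold change, a Wald score, a p-value, an adjusted p-value and a base mean, which is a signal averaging size-factor-scaled counts over libraries. The deposited repertoire table was not used here.

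Changes were fitted with limma 3.58.1 in R 4.3.3 (trend, robust) on log2(TPM + 1), pseudocount 1, for genes averaging 1 TPM or more across the compared libraries, two-sided, adjusted by Benjamini-Hochberg over all genes tested. Such changes understate those of low genes. AOAH was compared with vehicle 1 to 4, and PC with vehicle 1 to 3, because the labels list vehicle 4 for AOAH only. Tested on simulated data, the fit recovered 44% of genes changed by 0.3 log2 and 97% of those changed by 1 for AOAH, 20% and 88% for PC, and 41% and 93% for AOAH against PC.

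The 46 genes, the other lists and the rule for naming genes were chosen with earlier results of these data known. Library values are given for the 2 largest and the 1 smallest change of each role and for Pcna, Mcm2 to Mcm7, Tyms, Rrm2, Cdc6, Cdt1 and Slbp, and from each other list the 2 genes of lowest p and those called against the list are named, histones and markers in part, and 1 gene under this rule is not reported here. Alternatives were pseudocounts of 0.1 and 5, no filter, a filter of 5 TPM, unweighted TMM rescaling, quantile normalization, 1 fit over all 11 libraries, batch as a block, vehicle 4 included for PC, and each library left out. The pairing comes from the batch labels. Deviations from group means correlated at -0.00332 on average over 10 same-batch pairs (-0.0794 to 0.118) and at 0.00114 over 30 different-batch pairs (-0.125 to 0.14). Such deviations cancel within each group, so the averages are tied to each other and are not separate results. Promoters come from RefSeq (GRCm38.p6), another build than that of the deposited tables.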

Additional observations from a re-analysis of the deposited data

Results flagged for a closer look

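In 3 of 94 groups of 4 libraries, 1 library stood apart from the other 3 by more of the group's range than Dixon's 95% limit of 0.829, and chance flags about 1 in 20 groups. Gins1 stood at 64.1 TPM in vehicle 3, with the other vehicle libraries at 58.8 to 59.2 TPM. Dscc1 stood at 24.6 TPM (24.55 before rounding) in vehicle 3, with the others at 19.1 to 20.0 TPM. Chaf1a stood at 73.4 TPM in AOAH 4, with the others at 67.9 to 68.6 TPM.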

How the results depend on the processing

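The direction of all 46 genes held in every comparison and setting run. With AOAH the rises numbered 34 to 42 with 1 library left out (median log2 change 0.22 to 0.25), 36 with no filter, 38 under quantile normalization and 37 with batch as a replicate block, which lost Orc1, Gins2, Pole2 and Timeless. With PC the falls numbered 38 to 45 with 1 library left out (median -0.45 to -0.40), 38 with no filter and 44 under the block, which lost Gins3. All 46 differences between AOAH and PC passed in every setting, the block included (median 0.60 to 0.64 with 1 library left out). The block changed no other call among the 46. With no filter, which tests more genes, Orc1, Gins2, Pold2, Rpa3 and Timeless lost their AOAH call, and Mcm2, Gins2, Gins3, Pola2, Pole, Rfc5 and Tipin their PC call. Quantile normalization lowered the median to 0.19 with AOAH and to 0.57 for AOAH against PC, and the cause was not tested. It ended the AOAH calls of Gins2, Pola2, Pold2 and Rpa3, and TMM rescaling ended the PC call of Mcm2. Some settings added AOAH calls: quantile normalization that of Dscc1, the filter of 5 TPM that of Pole, and TMM rescaling those of Pole and Dscc1. In 1 fit over all 11 libraries Pole and Dscc1 gained their AOAH call, and Gins2 and Pold2 lost theirs (adjusted p = 0.0736 and 0.0697). Of all genes, those called numbered 2913 with AOAH (2198 to 2643 with 1 library left out, 2300 under the block), 2270 with PC (1274 to 2083, with 1405 without PC 2, 1387 without PC 3, 1274 without vehicle 1 and 1391 without vehicle 3; 1339 with no filter, 1572 under the block) and 5307 for AOAH against PC (4446 to 5048, 4246 under the block). Zbtb7b, a CD4 lineage marker, was not called between AOAH and PC in the main fit (-0.68 ± 0.28, adjusted p = 0.0816). It was called lower with AOAH than with PC under the block (adjusted p = 0.0162) and without AOAH 4 or PC 1 (adjusted p 0.0279 to 0.0494). Against vehicle it was not called with AOAH and changed sign, from -0.29 without AOAH 4 to 0.0097 without AOAH 3 and 0.017 without vehicle 1. Cdkn2c, not called with AOAH either (-0.04), moved from -0.0803 to 0.0196 with 1 library left out and to 0.0203 under quantile normalization. Depth per library is unknown. On simulated data with these group sizes the fit recovered only a part of changes near 0.3 log2, over genes drawn at random and not over the 46.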
